A study of Mus musculus with 22 samples.

Results

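Small nucleolar RNAs and small Cajal body RNAs were followed in total RNA of the right brain hemisphere of 22 mice. They were taken as every row of the count tables whose symbol starts with Snord, Snora or Scarna, which gave 119 of 24421 rows: 74 Snord, 36 Snora and 9 Scarna rows. All mice were of the strain C57B6/J OlaHsd, and the labels name no transgene or treatment. The 4 groups were 4 dominant and 4 submissive females and 7 dominant and 7 submissive males, ranked at 10 to 12 weeks of age by the tube test, in which the mouse that backs out of a narrow tube loses. Each cage of 4 mice gave its dominant and its submissive animal, from 4 female and 7 male cages, and female cages 3 and 4 carry a group label in place of a cage number. Females whose rank was intermediate had been mixed into new groups and ranked again, and the sources used here do not say which of the sequenced females came from such groups. Females and males were sequenced as separate series, so sex and series cannot be told apart and levels of the sexes are given side by side without a test.

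Small nucleolar RNAs are short stable RNAs that guide chemical changes of other RNAs. Box C/D RNAs (Snord) carry the sequence boxes C and D and direct 2′-O-methylation, mostly of ribosomal RNA, and box H/ACA RNAs (Snora) end in an ACA box and direct pseudouridylation. Small Cajal body RNAs (Scarna) work in the same ways on the small nuclear RNAs of the spliceosome. In mammals most of these RNAs are cut from the introns of host genes, often genes of ribosomal proteins or long non-coding SNHG genes, and a few, such as Scarna2, have a promoter of their own. Brain has box C/D RNAs of its own from the imprinted Prader-Willi region, such as Snord116 and Snord64, and Snora35 lies in an intron of Htr2c, the gene of a serotonin receptor.

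The rows did not always count the whole RNA, which matters for every level below. The deposited intervals were set beside the GENCODE M21 annotation of the same build (GRCm38), where 10 of the 119 rows had no match. In 91 rows the annotated RNA was longer than the counted interval, in 6 less than 50% of the annotated bases were counted, and the median counted share was 88.3%. The sequences below are those of 6 of the RNAs described in the comparisons and of 1 strongly shortened box C/D RNA, chosen to show which bases were counted. They are given 5′ to 3′, for the long Scarna2 and Scarna10 only the last 160 bases, as DNA letters with the counted bases in capitals and the uncounted bases in lower case.
Scarna2 (chr3:108554338-108554497, minus strand): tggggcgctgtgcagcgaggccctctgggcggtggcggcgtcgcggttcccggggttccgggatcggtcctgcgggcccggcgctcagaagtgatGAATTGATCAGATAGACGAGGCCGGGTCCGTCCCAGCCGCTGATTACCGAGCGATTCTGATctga
Scarna10 (chr6:125186359-125186518, minus strand): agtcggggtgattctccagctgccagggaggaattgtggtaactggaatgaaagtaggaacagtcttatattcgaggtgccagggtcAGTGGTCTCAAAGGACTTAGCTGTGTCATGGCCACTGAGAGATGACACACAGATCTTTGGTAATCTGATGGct
Snord17 (chr2:144265979-144266216, minus strand): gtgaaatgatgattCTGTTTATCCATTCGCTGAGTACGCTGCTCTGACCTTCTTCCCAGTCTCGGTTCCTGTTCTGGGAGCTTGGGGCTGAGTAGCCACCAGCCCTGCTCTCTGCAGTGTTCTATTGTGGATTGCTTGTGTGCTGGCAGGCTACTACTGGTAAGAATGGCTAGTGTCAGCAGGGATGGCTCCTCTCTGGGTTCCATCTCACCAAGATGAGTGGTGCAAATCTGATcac
Snord15b (chr7:99479563-99479707, minus strand): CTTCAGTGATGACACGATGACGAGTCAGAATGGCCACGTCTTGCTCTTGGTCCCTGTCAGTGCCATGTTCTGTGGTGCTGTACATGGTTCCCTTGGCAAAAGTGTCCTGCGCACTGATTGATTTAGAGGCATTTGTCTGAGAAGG
Snora35 (chrX:146994381-146994508, plus strand): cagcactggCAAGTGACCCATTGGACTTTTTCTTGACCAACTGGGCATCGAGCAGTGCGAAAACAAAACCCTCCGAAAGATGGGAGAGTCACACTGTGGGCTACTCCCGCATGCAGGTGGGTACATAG
Snord64 (chr7:59978808-59978874, minus strand): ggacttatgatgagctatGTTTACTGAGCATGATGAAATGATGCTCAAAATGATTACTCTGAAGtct
Snord98 (chr10:62765576-62765640, minus strand): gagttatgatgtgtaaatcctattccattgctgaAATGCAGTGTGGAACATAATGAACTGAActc

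In Scarna2, 61 of 414 bases were counted, all near the 3′ end, and in Scarna10 71 of 325. Snord98, a box C/D RNA in a Ccar1 intron, had 28 of 65 bases counted, and Snord64 46 of 67. Snord15b was counted over its whole length of 145 bases. The bases left out lay mostly at the 5′ side. The median number of bases before the counted part was 10 in Snord, 12 in Snora and 14 in Scarna RNAs, against 2, 0 and 2 bases after it.

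The sequence boxes of the classes were looked for on the RNA strand of the annotated sequences. The box C letters TGATGA were found in the first 25 bases of 40 of 65 Snord sequences (61.5%) and of 0 of 35 Snora sequences, and 0.472% of 32851 RefSeq promoter windows (GRCm38.p6) held them in a window of 25 bases. The box D letters CTGA were found in the last 15 bases of 59 of 65 Snord sequences (90.8%) and 2 of 35 Snora sequences, with 6.8% of the promoter windows. ACA with 3 bases after it, as in box H/ACA RNAs, ended 29 of 35 Snora sequences (82.9%) and 0 Snord sequences, with 1.17% of the windows. The classes by name thus matched the classes by sequence for most members. The names stand for these classes, so the match describes the annotation and is no independent check. The counted interval held box D in all 59 Snord RNAs that have it and box C in 17 of the 40.

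The members took 0.0904% to 0.114% of the counted reads of a library, 11982 to 17407 reads of 12403943 to 16488762, and 91 to 103 of them had reads in a given library. Levels are given as CPM, with library sizes adjusted by TMM factors, and a floor of 3 reads corresponds to 0.182 to 0.242 CPM in these libraries when taken over the total counts without that adjustment. The tissue markers fitted a brain hemisphere. The summed level of 3 neuronal markers was 2691 to 3558 CPM, that of 2 oligodendrocyte markers was 3633 to 4921 CPM, and all 5 cerebellar markers had reads. Of 5 red cell genes, the 4 globin genes were listed at 0 in every library, but their exons overlap other globin rows, so the 0 was not read as absence. Dominant male 1 stood apart by its cerebellar markers (172 CPM, against 503 to 939 in the others) and submissive female 3 by its pituitary markers (22.4 CPM, against 1.26 to 3.41), and their part in the results was not tested beyond the values without them given below. In bulk RNA, fewer cells of a type and less RNA per cell cannot be told apart.

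A few RNAs held most of the signal. The 10 most abundant members made up 90.1% of the summed CPM of all 119. They were Scarna10 (290 CPM as the mean over 22 libraries), Snora74a (203), Snord17 (119), Snord15b (96.2), Scarna6 (68.6), Scarna13 (48.7), Snord22 (39.9), Scarna2 (37.3), Snora78 (25.3) and Snora68 (18.9). Scarna10 (also called U85) guides modification of the spliceosomal U5 RNA, Scarna2 guides that of U2, Snord15b is a guide for large-subunit ribosomal RNA, and Snord22 (U22) takes part in the processing of small-subunit ribosomal RNA. The remaining members shared 9.91%, with a median of 0.303 CPM. Per kb of counted length the order changed. Scarna10 (4083 CPM per kb) and Snora74a (1023) still led, followed by Snord15b (663), Scarna2 (612), Snord17 (540), Snord22 (317), Scarna6 (277) and Snora68 (193). How reads that overlap a short interval in part were counted is not given in the sources used here, so values per kb of the short Scarna2 and Scarna10 intervals are less certain than those of intervals longer than a read.

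The level followed the length of the RNA. The 8 members annotated as longer than 150 bases had a median of 58.7 CPM and held 74.4% of the summed CPM. The 44 members of over 100 and up to 150 bases had a median of 0.844 CPM, and the 57 of 100 bases or less a median of 0.22 CPM and 2.6% of the sum. Over the 104 members with reads and an annotated length, Spearman's rho between length and CPM was 0.52, a description across RNAs that share the same libraries. The reads were 85 nt long, and 62 of the 119 counted intervals were shorter than 85 bases. Within the Snord class, the 6 RNAs longer than 110 bases held 24.7% of the summed CPM of all members and the 59 of 110 bases or less 2.67%. By class, the Scarna rows held 42.5%, the Snora rows 30.0% and the Snord rows 27.5%. Loss of short RNAs in library preparation and a lower amount of them in the tissue cannot be told apart in these counts.

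**Figure D1:**
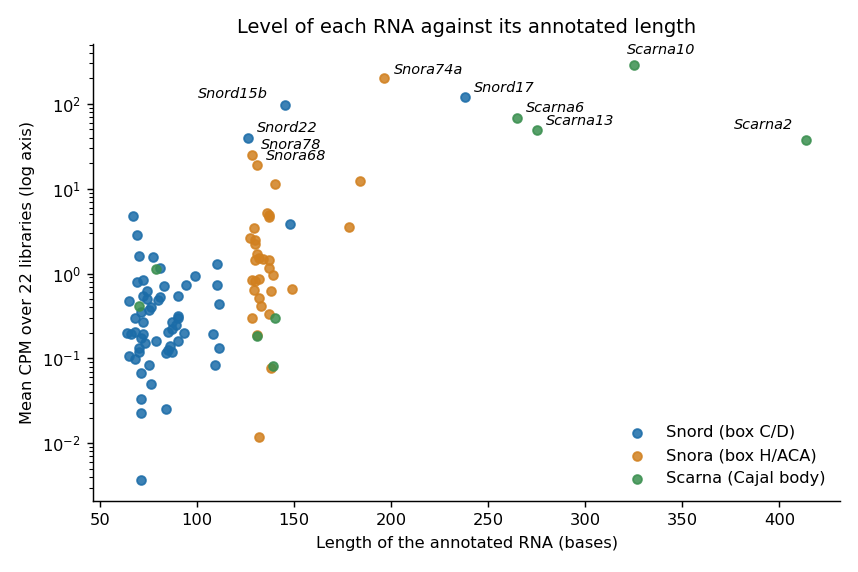
Mean CPM over 22 libraries on a log axis against the annotated length in bases for the 104 members with reads and an annotated length, coloured by class, with the 10 most abundant named. The 8 RNAs over 150 bases lie towards the top with a median of 58.7 CPM, and the RNAs of 100 bases or less have a median of 0.22 CPM.

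Of the 119 rows, 12 had no read in any library, and in 11 of these other rows share the counted bases. All 10 rows whose bases lie wholly within exons of another row on the same strand were at 0. These included Snora26 in an exon of Dancr, Snora24 in an exon of Snhg8, Snord45c in an exon of Rabggtb, Snord1a in 1810032O08Rik, and Snord116, Snord116l1 and Snord116l2, which share 900 bases with each other. Of the 101 rows that share no base, 100 had reads, and the exception was Snord118 (U8), a processing factor for large-subunit ribosomal RNA whose row counts 44 bases. Snord14a, wholly covered only by a gene on the opposite strand, had 37 reads. A 0 in the covered rows was not read as absence of the RNA, and Snord116 could not be followed. Around it, Ipw, the non-coding host by coordinates, was at 187 ± 22.8 and 165 ± 12.2 CPM in dominant and submissive females (n = 4 each) and 362 ± 88 and 378 ± 81.7 in males (n = 7 each), and Snhg14, the long non-coding RNA of the same imprinted region, was at 112 CPM as the mean over 22 libraries. Among the imprinted RNAs with a member symbol only Snord64 could be followed, and imprinted RNAs under other symbols were not looked for. Snord64 was at 4.76 ± 0.88 CPM (SD, n = 4) in dominant and 4.48 ± 0.66 (n = 4) in submissive females. In dominant and submissive males it was at 5.01 ± 0.85 (n = 7) and 4.59 ± 0.57 (n = 7).

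Reads in these rows could come from the mature RNA or from unspliced host RNA, so each member was set beside the exons of the gene in which it lies. Hosts on the same strand were found in 80 genes, and 101 members with a host had reads. Per kb, 18 of the 101 were above the exons of their host and 83 below, with a median ratio of 0.14. The 18 held 88.1% of the summed CPM. Scarna10 was at 4083 CPM per kb where the exons of Ncapd2 were at 4.09, Snora74a at 1023 against 7.3 in Snhg4, Scarna13 at 177 against 4.44 in Snhg10, and Snora78 at 161 against 2.9 in Snhg9. Among the 31 members with reads in ribosomal protein genes, 2 were above the host, among them Snord15b (663 against 165 CPM per kb in Rps3), and the median ratio was 0.03. Among the 13 in SNHG genes or Gas5, 8 were above, with a median ratio of 1.19. Levels of members and hosts were barely related across genes (Spearman's rho 0.0895 over 101 members). For a member below its host exons, the share of reads from unspliced host RNA was not tested.

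**Figure D2:**
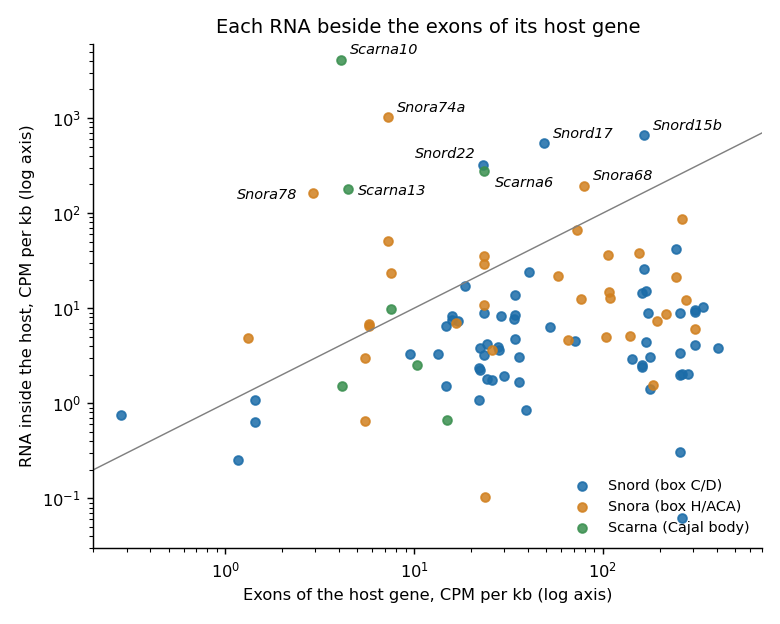
CPM per kb of each of 101 RNAs against CPM per kb of the exons of its host gene, both on log axes, coloured by class, with the line of equal values. Of the 101 points, 18 lie above the line, among them the 9 named RNAs of the 10 most abundant that have a host, and 83 lie below.

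With that in view, the groups were compared first by their sums. The summed members were at 1051 ± 45.9 CPM (n = 4) in dominant and 1057 ± 56.3 (n = 4) in submissive females, and at 1034 ± 62 (n = 7) in dominant and 1064 ± 44.6 (n = 7) in submissive males. These sums overlapped widely between ranks and no p is given for them. The Snord sum was 302 ± 21.7 and 298 ± 27.6 CPM in dominant and submissive females and 279 ± 10.4 and 287 ± 18.6 CPM in the males, and the Snora sum was 297 ± 9.1, 303 ± 13.98, 320 ± 28.2 and 328 ± 26.1 CPM in the same order. The Scarna sum lay between 435 ± 36.6 CPM in dominant males and 456 ± 23.8 in submissive females. Of the most abundant RNAs, Scarna10 was at 272 to 314 CPM in all females and at 230 to 313 in all males, and Snora74a at 186 to 197 in females and 174 to 238 in males.

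**Figure D3:**
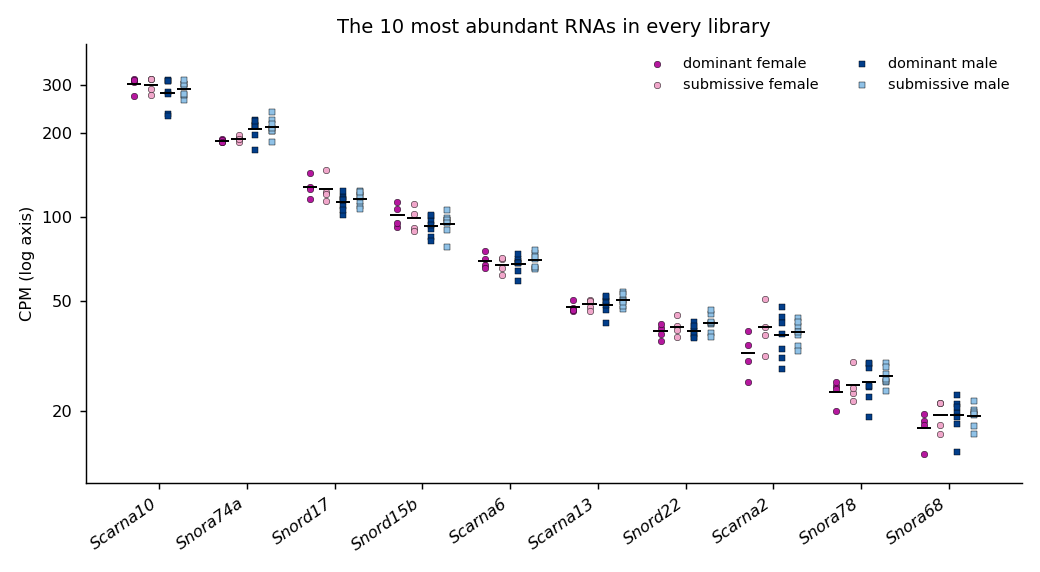
CPM on a log axis of the 10 most abundant RNAs in each library, with circles for females, squares for males, dark for dominant and light for submissive mice, and a line at each group mean. The ranks overlap within each sex in all 10 RNAs, and Scarna2 spreads widest in females, from 25.5 to 50.7 CPM.

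The first comparison asked whether social rank goes with the level of a guide RNA in females. Of the 49 members with enough reads to be tested, 0 passed at an adjusted p under 0.05 in edgeR's quasi-likelihood test (all genes tested: 0.0942%), and 1 had an unadjusted p under 0.05 where 10.5% of all genes did. DESeq2 gave 0 at both thresholds, where 0.424% and 6.88% of all genes passed them. The median log2 fold change of dominant over submissive was -0.02, beside -0.002 over all genes, with 27 members lower (55.1%) where 50.9% of all genes were. Standard errors ran from 0.031 to 0.12 on the log2 scale for the 10 most abundant members and from 0.11 to 0.38 for the other 39, so a difference in a low member had to be large to be seen.

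Scarna2 had the smallest p in females. Dominant females 1 to 4 were at 38.7, 34.6, 25.5 and 30.3 CPM and their submissive cage mates at 50.7, 40.3, 31.5 and 37.4. The groups overlapped, yet the dominant mouse was the lower in 4 of 4 cages. The dominant female was the lower in every cage for 4 of the 49 members (8.16%) and for 7.4% of all genes. Without submissive female 3, 0 of 50 members tested had an adjusted p under 0.05 in edgeR's quasi-likelihood test. Scarna2 differed by -0.31 ± 0.12 (log2, standard error), a fold of 0.804, with an adjusted p of 0.327 in edgeR's quasi-likelihood test. Leaving out 1 mouse in turn gave differences of -0.41 to -0.18, the smallest without submissive female 1. The same test with the cage as a block gave -0.31 ± 0.052 and an adjusted p of 0.0159, and Scarna2 was then the only member called, where 0.242% of all genes were. In that blocked test, leaving out 1 cage in turn gave adjusted p values of 0.00353 to 0.0903, and the call was lost without cage 1 (0.0903) or cage 3 (0.0563). DESeq2 with the block gave an adjusted p of 0.0934. These last fits were added after the data had been seen. The only red cell gene with reads, Alas2, an enzyme of heme synthesis, was at 3.86 to 5.99 CPM in dominant and 2.56 to 3.78 in submissive females. In dominant and submissive males it was at 4.82 to 9.33 and 4.85 to 8.0. These ranges are given without a test and without the share of all genes whose ranks do not overlap. The part of red cells in the female rank differences was not tested. The count rests on the 61 bases in capitals above, and the rest of the RNA was not measured.

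The next members in females were low ones. Snord83b, in an intron of Rpl3, was at 0.635 ± 0.2 CPM (n = 4) in dominant and 0.954 ± 0.28 (n = 4) in submissive mice, and Snord104 at 1.5 ± 0.37 and 1.91 ± 0.19. In the other direction, Snora64 (in Rps2) was at 1.9 ± 0.36 and 1.43 ± 0.39 CPM, Snora43 (in Snhg7) at 1.01 ± 0.21 and 0.724 ± 0.35, and Snora15 (in Cct6a) at 1.79 ± 0.67 and 1.4 ± 0.42. In every one of these 5 the ranks overlapped, and their adjusted p values were 0.52 (Snord83b) and more. Within cages, Snord104 was the lower and Snora64 the higher in the dominant mouse of 4 of 4, and with the cage as a block the adjusted p of the 5 was 0.534 (Snora64) to 0.662 (Snora15) in edgeR's quasi-likelihood test. Fits without 1 mouse, or without 1 cage in the blocked test, moved the log2 differences widely, from 0.05 to 0.59 for Snora15, 0.28 to 0.83 for Snora43, 0.28 to 0.59 for Snora64, -0.90 to -0.29 for Snord83b and -0.52 to -0.20 for Snord104.

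In males 44 members were tested and 0 passed (all genes: 0%), while 1 had an unadjusted p under 0.05 where 1.32% of all genes did. DESeq2 gave 0 at both thresholds, where 0% and 0.807% of all genes passed them. The median log2 fold change was -0.05 beside -0.0015 over all genes, and 32 of 44 members (72.7%) were lower in dominant mice, beside 51.4% of all genes. Members share libraries and hosts, so this share is given without a test. The member with the smallest p was Snora35. Dominant males ranged from 0.265 to 1.02 CPM with a median of 0.768, and submissive males from 0.76 to 1.14 with a median of 1.0. The dominant mouse was the lower in 6 of 7 cages, although the ranges overlapped. No share of all genes is given for that count. The difference was -0.48 ± 0.23 (log2), with an unadjusted p of 0.0486 and an adjusted p of 0.99992 in edgeR's quasi-likelihood test. Without dominant male 1 it was -0.51 ± 0.24. Without that library, 0 of 45 members tested had an adjusted p under 0.05 by the same test. In females, dominant mice 1 to 4 were at 0.63, 0.482, 0.982 and 0.784 CPM and submissive mice at 1.39, 1.06, 0.592 and 0.834, lower in the dominant mouse of 3 of 4 cages and overlapping. Snora7a (in Rpl32) was at 10.6 ± 1.4 CPM (n = 7) in dominant and 11.9 ± 0.95 (n = 7) in submissive males, and Snord89 at 1.151 ± 0.25 and 1.41 ± 0.25. The members with the smallest p in the other direction were Snord42b (0.86 ± 0.3 and 0.685 ± 0.25 CPM), Snora31 (0.955 ± 0.3 and 0.76 ± 0.2) and Snord2 (3.06 ± 0.5 and 2.73 ± 0.62). Scarna2 in males was at 28.3 to 47.2 CPM in dominant and 32.8 to 43.1 in submissive mice, and the dominant mouse was the lower in 4 of 7 cages.

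**Figure D4:**
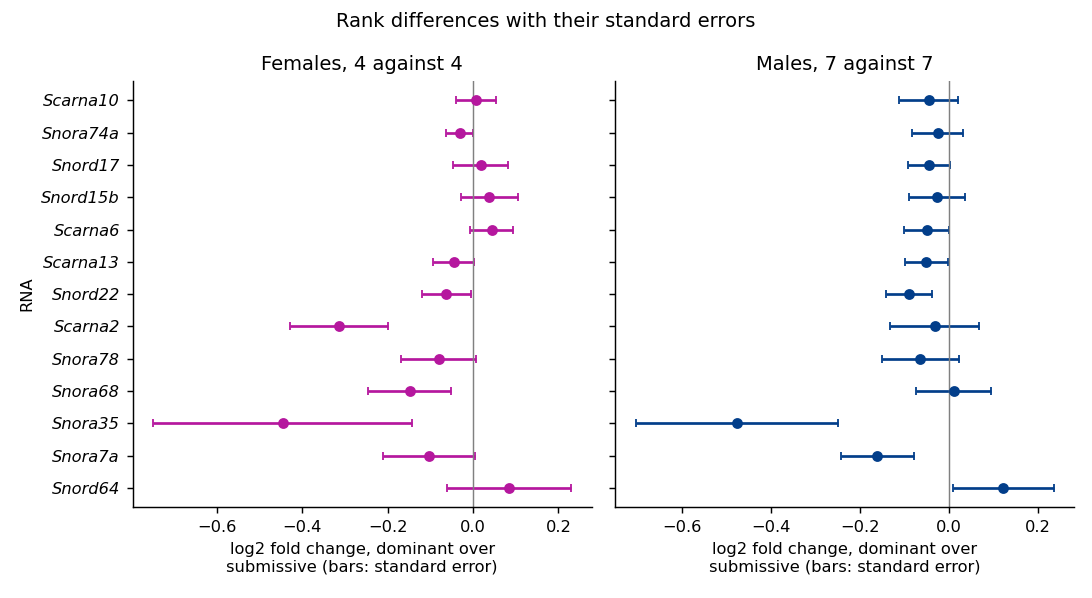
Log2 fold change of dominant over submissive mice with its standard error for the 10 most abundant RNAs and Snora35, Snora7a and Snord64, in 4 against 4 females (left) and 7 against 7 males (right). Scarna2 sits at -0.31 in females and Snora35 at -0.45 in females and -0.48 in males, and no adjusted p was under 0.05 in these fits without the cage as a block.

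Over all 22 mice, with the 11 cages as a covariate, 56 members were tested and 0 passed (all genes: 0%). An unadjusted p under 0.05 was found for 3 members (5.36%), all lower in dominant mice, where 2.78% of all genes had one and 1.46% had one and were lower. DESeq2 gave 0 adjusted (all genes: 0%) and 1 unadjusted (0.565%). The 3 in edgeR were Snora35 (-0.47 ± 0.18), Scarna2 (-0.14 ± 0.057) and Snord22 (-0.08 ± 0.032), and their adjusted p in edgeR's quasi-likelihood test was 0.99968. Snord22 was the most regular. It was lower in the dominant mouse of 10 of 11 cages, which held for 1 of 56 members and 0.322% of all genes, at 38.7 ± 2.2 and 40.2 ± 3.1 CPM in dominant and submissive females (n = 4 each) and 38.9 ± 1.9 and 41.4 ± 3.2 in males (n = 7 each), a fold of 0.949. Snora35 and Snora7a were lower in 9 of 11 cages, and Scarna2 in 8. For these counts no share of all genes is given, and the RNAs were named for small p values in the same data. In the other direction the smallest p values belonged to Snord72, Snora81 and Snora31. The log2 fold changes were 0.38 for Snord72 (unadjusted p 0.0961 in edgeR's quasi-likelihood test) and 0.12 for Snora81. Leaving out 1 mouse in turn moved them from 0.283 to 0.521 for Snord72 and from 0.0786 to 0.157 for Snora81.

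Snora35 was set beside its host and a tissue in which that host is abundant. It had 271 reads over the 22 libraries, so its values rest on few reads each. Htr2c was at 73.2 ± 4.62 CPM in dominant and 74.2 ± 2.84 in submissive females (n = 4 each) and 82.3 ± 5.25 and 82.1 ± 2.95 in males (n = 7 each), and its rank difference over all mice was -0.01 ± 0.029 (log2) with an adjusted p of 0.99968. Htr2c is strongly expressed in the choroid plexus, and the summed level of 3 choroid plexus markers was 668 to 825 CPM in dominant and 640 to 969 in submissive females and 569 to 1024 and 438 to 812 in males, none of them at 0 throughout. Their part in the Snora35 values was not tested. Snora35 was at 7.01 CPM per kb beside 16.7 for the exons of Htr2c.

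Whether rank acted differently in females and males was tested as an interaction of rank and sex over all 22 mice. Of 56 members 0 passed (all genes: 0%), and 0 had an unadjusted p under 0.05 where 3.32% of all genes did, with 0 of both in DESeq2 (0% and 2.8% of all genes). The smallest p, 0.0883, belonged to Snora62, in an intron of Rpsa, which was at 0.562 ± 0.24 and 0.816 ± 0.43 CPM in dominant and submissive females and 0.677 ± 0.13 and 0.607 ± 0.057 in males. Its interaction of -0.71 (log2) moved from -0.97 to -0.28 when 1 mouse was left out, and was -0.28 without submissive female 2. Snord49a, Snord49b, Snora43, Snord83b and Snord100 followed. For Scarna2 the rank difference in females minus that in males was -0.28 ± 0.18 (log2), with an adjusted p of 0.99859 and, with the cage as a block, of 0.712. Leaving out 1 mouse in turn moved it from -0.37 to -0.14, the smallest without submissive female 1. A difference of the sexes in the Scarna2 rank effect was thus not shown.

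The second comparison was between cages. In females, 2 of 49 members (4.08%) differed among the 4 cages at an adjusted p under 0.05 in edgeR's quasi-likelihood test, where 0.074% of all genes did, 11 genes in all, and 8 members (16.3%) had an unadjusted p under 0.05, where 5.11% of all genes did. DESeq2 called 1 of them (0.0336% of all genes) and gave 3 unadjusted (0.639%). The 2 called by edgeR were Scarna2, with an adjusted p of 0.00124, and Snord17, with 0.0338. The cage means of Scarna2 were 44.7, 37.4, 28.5 and 33.9 CPM for cages 1 to 4, a range of 1.57-fold. Those of Snord17 were 126, 115, 146 and 124 CPM, a range of 1.27-fold, and both mice of cage 3 (144 and 148 CPM) were above the other 6 (114 to 129). Scarna2 was at its lowest and Snord17 at its highest in the same cage. Snord15b, the third by p, was at 108.1, 91.6, 109.3 and 92.2 CPM with an adjusted p of 0.108. Snora68, Scarna6 and Snord22 completed the 6 smallest, with adjusted p values of 0.798, 0.909 and 0.927.

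Each call among the female cages rested on few mice, and on simulated data the cage test made more false calls than its nominal rate. Scarna2 had an adjusted p of 0.0654 without submissive female 1 and kept its call when any other mouse was left out. Snord17 lost its call without submissive female 1 (0.0654), dominant female 3 (0.117) or submissive female 3 (0.492), and had 0.101 in DESeq2. The 11 genes called in the same comparison included Arc, Fos, Dusp1, Nr4a1 and Btg2, named here after their values were seen, and each of these 5 was highest in both mice of cage 3. Arc was at 160 and 109 CPM in the dominant and submissive mouse of cage 3 and at 62 to 94 in the other 6 females, and Fos at 27.4 and 22.1 CPM against 9.58 to 15. Junb was also highest in both mice of cage 3 and was not called (adjusted p 0.0821 in edgeR's quasi-likelihood test). Their part in the values of Scarna2 and Snord17 was not tested. Cages 3 and 4 are also those with a group label, and cage, handling and time of sacrifice cannot be told apart.

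In males 0 of 44 members differed among the 7 cages at an adjusted p under 0.05 by edgeR, while 5.89% of all genes did. An unadjusted p under 0.05 was found for 6 members (13.6%), where 22.3% of all genes had one, and DESeq2 gave 0 adjusted (6.53% of all genes) and 2 unadjusted (12.6%). The 6 were Scarna2 (adjusted p 0.136), Snora81, Snora61, Snora70, Snord2 and Scarna10 (0.218). Cage means of Scarna2 ran from 30.6 to 45.2 CPM, a range of 1.48-fold, and those of Scarna10 from 249 to 312 CPM, 1.25-fold. Snord17 hardly varied in males, with cage means of 111 to 119 CPM. With the trend of counts on length removed, Scarna10 was called in males (adjusted p 0.0129), and without submissive male 2 it was as well (0.0359).

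**Figure D5:**
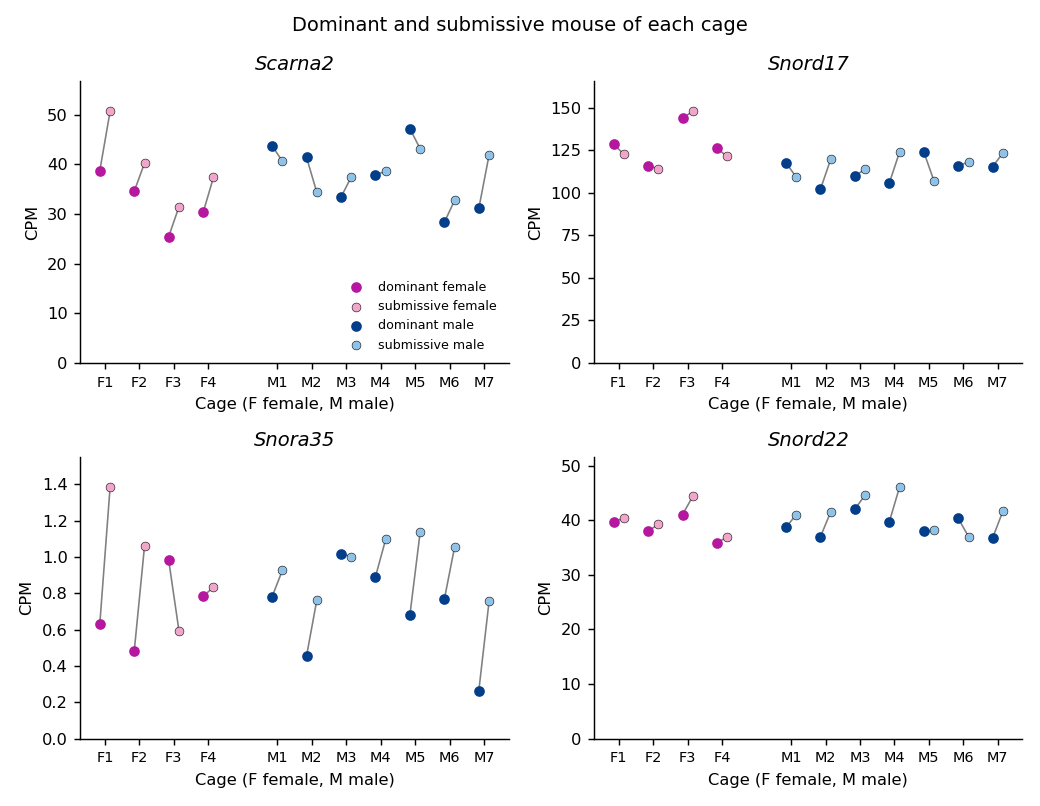
CPM of Scarna2, Snord17, Snora35 and Snord22 in the dominant (left, dark) and submissive (right, light) mouse of each of 4 female cages (F1 to F4) and 7 male cages (M1 to M7), joined by a line, on linear axes from 0. Scarna2 is lower in the dominant mouse of 4 of 4 female cages, Snord17 is highest in both mice of F3, and Snord22 is lower in the dominant mouse of 10 of 11 cages.

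The proteins and hosts of these RNAs were read from lists of known genes. Of 36 symbols listed for the snoRNA-protein particles, their assembly, the Cajal body and their processing and decay, 35 had a row and were tested. By edgeR, 0 of the 35 differed by rank in either sex, in the pooled test or in the interaction. An unadjusted p under 0.05 was found for 1 in females, Gemin2, a factor of small nuclear RNA-protein assembly (0.27 ± 0.11, log2), and for 1 in males, Gar1, a core protein of box H/ACA particles (0.2 ± 0.088), where 10.5% of all genes had one in females and 1.32% in males. DESeq2 called 0 in each of these tests. The list medians were -0.012 in females and 0.013 in males, beside -0.002 and -0.0015 over all genes. Fibrillarin (Fbl), the methyltransferase of box C/D particles, differed by -0.17 ± 0.097 in females. Among male cages 2 of 35 were called (5.89% of all genes were), Xrn1, an exonuclease (adjusted p 0.0345), and Ice1, a factor for small nuclear RNA transcription (0.0377), and among female cages 0. The male count was 0 with the trend of counts on length removed. With 1 mouse left out in turn it fell for most mice and rose for others. The share of all genes called in those fits is not given.

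Of 87 SNHG and host genes, 85 were tested in each sex and 0 differed by rank. In females 15 had an unadjusted p under 0.05 (10.5% of all genes), led by Snhg11 (0.19 ± 0.041, adjusted p 0.0747), Rpl13a (-0.11 ± 0.029, 0.161) and Srcap (0.21 ± 0.061, 0.199), and in males 0 did, where Snhg8 had the smallest p (0.12 ± 0.057). Hosts of the members described by rank showed no call either, and the list median was -0.017 in females and 0.018 in males. DESeq2 and the blocked test each called 1 of the 85 in females, where they called 0.424% and 0.242% of all genes. Among male cages 5 of 85 were called, with Snhg11 (adjusted p 0.000348), Ipw (0.000716), Gltscr2 (0.00397) and Chd8 (0.0205) first, where 5.89% of all genes were, and among female cages 0. With 1 mouse left out in turn, the count among male cages moved in both directions, and the share of all genes called in those fits is not given.

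A mixed list was taken beside the members, made of named short or structured RNAs and of other rows with a short counted length. It was chosen by symbol and length, so small nucleolar RNAs under other symbols were not left out. The length rule also took in Snhg9, already among the SNHG genes, and defensin genes such as Defb5. Of 36 such rows 13 to 15 were tested, and 0 differed by rank in either sex, in the pooled test, in the interaction or among cages by edgeR, with 1 unadjusted p under 0.05 in the pooled rank test (2.78% of all genes), 4 among female (5.11%) and 6 among male cages (22.3%). Rpph1, the RNA of ribonuclease P, was at 3602 to 5482 CPM and Rmrp, that of the mitochondrial RNA processing enzyme, at 2613 to 3703, each above the sum of all 119 members. Rnu12, the minor spliceosomal U12 RNA, differed between dominant and submissive mice over all cages by -0.11 ± 0.045 (log2; unadjusted p 0.0239, adjusted p 0.99968) in edgeR's quasi-likelihood test, the 1 just counted. Without dominant male 1 it passed among male cages (adjusted p 0.0409, against 0.0787 with it). The summed members were set against the sum of Rpph1 and Rmrp within each sex, 2 relations in all. Over 14 males Pearson's r was 0.474 (permutation p 0.0857, adjusted 0.171) and Spearman's rho 0.653 (permutation p 0.014, adjusted 0.0281), with r of 0.512 without the 2 males farthest from the median. Over 8 females r was 0.31 (exact permutation p 0.469) and rho 0.0476 (0.935), and r was -0.607 without the 2 farthest, so no relation held in both sexes. The tests were two-sided, and cage mates were counted as separate samples.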

How the data were processed

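The authors extracted total RNA with a lipid tissue kit, made stranded libraries after removal of ribosomal RNA and sequenced single-end reads of 85 nt. Per the labels' processing notes and the methods, reads were trimmed with cutadapt 1.15 and bbduk and aligned to mm10 with STAR 2.6.0a. Counting used featureCounts 1.6.2 with gene models from iGenomes. The deposited tables hold raw counts per gene, not normalized. Strand setting and handling of multi-mapping or multi-gene reads are not given in the sources used here. Each library is 1 mouse.

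CPM and tests used edgeR 4.0.16 (R 4.3.3) with TMM factors, its filter (minimum count 10, minimum total 15), quasi-likelihood fits over all genes and Benjamini-Hochberg adjustment at 0.05. Rank was tested within each sex, over all mice with cage as covariate, and as an interaction with sex; cage was tested within each sex with rank as covariate. Alternatives were DESeq2 1.42.0, its size factors in edgeR, no filter, a mean count of at least 50, the robust prior, removal of each sample's loess trend on Length (span 0.3), the cage as block, 1 fit over all 22 samples, and leave-one-out fits. The tests were tested on simulated data, where the cage test gave more false calls than its nominal rate.

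Replicate numbers pair the samples, because library names give them the same cage and both mice of a cage were sacrificed together. The mean correlation between cage mates of deviations from the group mean, taken over genes, was 0.157 in males (-0.0261 for other pairs) and 0.0211 in females (-0.00703). Members, lists and named genes were chosen with earlier results of these data known. Named are the 10 members highest in CPM and 8 highest per kb, the 3 smallest p per direction of each rank test, the 6 smallest p of each cage test, called members, imprinted rows, Scarna rows and, from the lists, called genes and those with the smallest p. Of the 9 Scarna rows, Scarna17 had a mean of 1.12 CPM, Scarna9 0.415, Scarna3a 0.299, Scarna8 0.181 and Scarna3b 0.0822. Sequences are those of GENCODE M21. The 27 rows with a date in place of a symbol were kept, and no member was among them.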

Additional observations from a re-analysis of the deposited data

Results flagged for a closer look

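Of 140 group checks over 38 named members, 4 had 1 mouse far from the others of its group by Dixon's test at 95%, and chance flags about 1 in 20 groups. Scarna10 was at 272 CPM in dominant female 4 (others 307 to 314). Snora62 was at 0.946 CPM in dominant male 3 (others 0.559 to 0.71). Snora81 was at 3.02 CPM in submissive female 1 (others 3.62 to 3.63). Snord42b was at 0.417 CPM in submissive female 4 (others 0.921 to 1.01).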

How the results depend on the processing

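The members named for the smallest p of each rank test were picked from the libraries that the alternatives refit. A kept direction thus tells little. No rank difference of these members changed direction in its test under the alternatives run. Smaller differences did, for example Snora7a in females (-0.10, but 0.0069 without submissive female 3), Snord15b over all mice (0.00069, but -0.0036 without dominant male 1) and Scarna2 in males (-0.03, but 0.026 without dominant male 6 and 0.0093 without dominant male 7). Counts of called members differed from the main count in these cases. For rank in females (0), the cage as block gave 1, the block with the Length trend removed 1, and the block without a cage in turn 0 to 1, always Scarna2. Among female cages (2), DESeq2 gave 1, no filter 3, with Snord15b added, and leaving out a mouse 0 to 3; among male cages (0), removing the Length trend gave 1 and leaving out a mouse 0 to 1. The other rank counts of members stayed at 0 under every alternative run, and the block changed no other member call. For SNHG and host genes by rank in females (0), DESeq2, no filter, the block and DESeq2 with the block (added after the data were seen) gave 1 each, and leaving out a mouse or cage 0 to 2; among male cages (5), DESeq2 and no filter gave 6 each, the robust prior and the Length trend removed 4 each, and leaving out a mouse 3 to 17, with 17 without dominant male 1 and 16 without submissive male 1. For particle proteins among male cages (2), the Length trend removed gave 0 and leaving out a mouse 0 to 4. For other short RNAs, DESeq2, no filter and the robust prior gave 1 each among male cages (0) and leaving out a mouse 0 to 2, and no filter gave 1 among female cages (0). The share of all genes called in the fits without a mouse or cage is not given. Whether the list counts moved with those of all genes was therefore not tested. The cause of these shifts was not tested. The 10 highest members held 88.2% of the summed level per kb of Length and 90.9% without members that share exon bases, against 90.1%. Where a mouse was left out, its lone cage mate is assumed to vary like the others.

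Few reads, some of them in rows that share bases with others, limited the tests. Only 56 of 119 members had enough reads to be tested over all mice, and in 6 rows under 50% of the RNA was counted. Rows covered by another gene cannot be read. Intervals differ in length from the RNAs, levels of RNAs shorter than the reads depend on the library, and the stranded counting setting is not given in the sources used here.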
